A study of Homo sapiens with 6 samples.

Results

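The transcripts followed here belong to 31 genes of DNA replication and of the passage from G1 into S phase, in CAL-27 cells given DHA for 48 h or the solvent DMSO instead. They were chosen by name, as genes of origin licensing, DNA synthesis, nucleotide supply and G1/S control. All 31 have a row among the 22503 genes of the deposited count table, and all 31 were among the 14649 genes tested. CAL-27 is an established line from an oral squamous cell carcinoma of the tongue, labelled as a keratinocyte type. DHA was read as dihydroartemisinin because the series concerns artemisinin derivatives. No label read here states its dose. DHA and DMSO had 3 libraries each, all of the same line, and no other agent or allele is named. Whether each library had its own culture is not labelled, so the p-values reflect library-to-library spread alone, possibly a technical one.

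Replication is prepared in G1, when ORC1, CDC6 and CDT1 load the ring of MCM2 to MCM7 onto origins, a step called licensing. At the start of S phase CDC45 and the GINS complex join the ring to form the active helicase, and polymerases, the sliding clamp PCNA and its loader copy the strands. Most of these genes are classical targets of the E2F factors, which cyclin E kinases help to release from the retinoblastoma protein, so their transcripts rise as dividing cells approach S phase. In a bulk sample, fewer cells in S phase and less RNA per cell cannot be told apart.

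The RefSeq promoter table (GRCh38.p14), which gives 250 bases before and 50 bases from the start of a gene, matched 27 of the 31 genes; MCM4, MCM5, CCNE2 and DSCC1 are named only. The E2F-type words TTTCCCGC, TTTCGCGC, TTTGCCGC and TTTGGCGC were searched on both strands. At least 1 word was present in 17 of the 27 promoters (63.0%), against 908 of all 27305 promoters in the table (3.33%) and 613 of the 11728 promoters of genes tested here (5.23%). The letters describe these windows and say nothing of binding in these cells. MCM6 held 4 words, 2 pairs in which a word on one strand overlaps a word on the other. MCM2, MCM3, MCM7 and E2F1 held 2 words each, overlapping in MCM2. CCNE1, RRM2, RRM1, CDC45, MCM10, ORC1, FEN1, CHAF1A, RFC4 and SLBP held none of these words in the window. Windows of 110 bases are shown for the most abundant gene of each role with such a word (MCM7, GINS2, PCNA, UHRF1, TYMS and E2F1) and, chosen after their values were seen, for CDC6, MCM3 and MCM6, with the words in capitals as they read on the gene's own strand. Of the 2 words of MCM7 and of MCM3, 1 lies in the window shown.
CDC6: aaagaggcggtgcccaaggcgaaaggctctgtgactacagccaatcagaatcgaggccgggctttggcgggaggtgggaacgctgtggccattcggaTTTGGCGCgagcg
MCM3: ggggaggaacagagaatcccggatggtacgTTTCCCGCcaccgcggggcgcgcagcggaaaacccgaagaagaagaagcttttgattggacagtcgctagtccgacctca
MCM6: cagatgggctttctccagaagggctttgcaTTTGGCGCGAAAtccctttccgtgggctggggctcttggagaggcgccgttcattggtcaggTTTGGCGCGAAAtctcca
MCM7: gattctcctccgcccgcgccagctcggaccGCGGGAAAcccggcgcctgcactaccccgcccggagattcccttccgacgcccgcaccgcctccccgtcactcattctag
GINS2: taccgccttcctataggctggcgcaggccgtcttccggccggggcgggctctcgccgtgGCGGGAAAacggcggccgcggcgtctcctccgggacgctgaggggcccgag
PCNA: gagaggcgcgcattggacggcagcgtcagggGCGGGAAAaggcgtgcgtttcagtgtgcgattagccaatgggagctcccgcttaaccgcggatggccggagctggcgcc
UHRF1: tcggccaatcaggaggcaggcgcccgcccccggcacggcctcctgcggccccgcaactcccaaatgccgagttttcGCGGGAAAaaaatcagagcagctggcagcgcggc
TYMS: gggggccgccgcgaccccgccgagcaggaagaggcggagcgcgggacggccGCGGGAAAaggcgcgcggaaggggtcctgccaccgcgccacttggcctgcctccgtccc
E2F1: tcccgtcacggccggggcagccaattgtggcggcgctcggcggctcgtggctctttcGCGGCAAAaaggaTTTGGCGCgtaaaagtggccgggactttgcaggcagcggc
These lie at chr17:40287789-40287898 on the plus strand for CDC6, chr6:52284837-52284946 on the minus strand for MCM3, chr2:135876516-135876625 on the minus strand for MCM6, chr7:100101505-100101614 on the minus strand for MCM7 and chr16:85688935-85689044 on the minus strand for GINS2. The others lie at chr20:5126603-5126712 on the minus strand for PCNA, chr19:4909411-4909520 on the plus strand for UHRF1, chr18:657563-657672 on the plus strand for TYMS and chr20:33686366-33686475 on the minus strand for E2F1. The UHRF1 window surrounds the start used in the promoter table, which lies inside the longer span annotated for that gene.

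Library totals ran from 35983061 to 38120267 counts in DHA and from 35980670 to 37403613 in DMSO. The 31 genes held 0.258%, 0.279% and 0.288% of all counts in DHA 1, DHA 2 and DHA 3, against 0.206%, 0.294% and 0.306% in DMSO 1, DMSO 2 and DMSO 3. All 10 keratinocyte and epithelial markers checked were present, with summed levels of 4324 to 5015 CPM in DHA and 5748 to 7332 CPM in DMSO. The sums hide mixed directions. KRT5, KRT17, TP63, CDH1 and ITGB4 were lower in all DHA libraries, KRT6A and SFN were higher, and KRT14, EPCAM and DSG3 overlapped. Of all genes tested, 14.3% were higher and 13.5% lower without overlap. KRT17 stood at 2547 CPM in DMSO 1, against 1122 CPM in DMSO 2 and 1106 CPM in DMSO 3. Fibroblast markers summed to 9.16 to 13.2 CPM in DHA and 13.6 to 23.5 CPM in DMSO, mostly COL1A1, while PDGFRA, DCN and COL3A1 stayed at or near 0 in all 6 libraries. The 3 leukocyte markers read here, of 7 listed, summed to 34.7 to 47.4 CPM in DHA and 44.0 to 46.5 CPM in DMSO, mostly from CD68, with LYZ at or near 0. Within that sum CD14 was lower in all DHA libraries, at 2.23, 2.66 and 1.7 CPM in DHA 1 to DHA 3, against 6.65, 4.88 and 5.39 CPM in DMSO 1 to DMSO 3. The part of these marker levels in the results below was not tested. Endothelial markers summed to 15.6 to 18.8 CPM in DHA and 16.9 to 26.7 CPM in DMSO, mostly from CDH5, with PECAM1 at or near 0. By the mean chi-square of a gene between libraries, DMSO 2 and DMSO 3 were the closest pair, at 6.63. The 3 pairs of DHA libraries stood at 41.3, 43.7 and 125, and DMSO 1 stood at 78.4 from DMSO 2 and 81.4 from DMSO 3. Over all genes DMSO 1 thus lay farther from the other DMSO libraries than DHA 1 from DHA 2 or DHA 3. Only DHA 2 and DHA 3 lay farther apart within a group. Each library was left out in turn, and the values without DMSO 1 are given in full because the 31 genes were lowest there among the DMSO libraries, a choice that rests on these genes' own values. What sets DMSO 1 apart was not tested.

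The comparison asks whether the replication and G1/S transcripts differed after DHA. None of the 31 genes passed an adjusted p of 0.05 in edgeR's quasi-likelihood test, where 2.7% of all genes tested passed (1.1% higher and 1.6% lower in DHA), and the lowest adjusted p among them was 0.122, for CDC6. At an unadjusted p under 0.05 there were 2 genes, CDC6 and CCNE1, or 6.45%, against 20.3% of all genes. DESeq2 and limma-voom also made no call among them, where DESeq2 called 7.75% and limma-voom 2.49% of all genes. The median log2 fold change (DHA over DMSO) was 0.06, beside 0.0028 over all genes tested, with 21 genes above 0 and 10 below.

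The 95% intervals put bounds on what could have been missed. For all 31 genes the interval excluded a 2-fold change in either direction, which held for 72.9% of all genes tested. The lowest bound was -0.79 on the log2 scale, a fold of 0.577, for UHRF1, and the highest was 0.91, a fold of 1.88, for CCNE1. A 1.5-fold change in either direction was excluded for 18 genes, or 58.1%, against 36.4% of all genes. The intervals hold gene by gene and not jointly. The typical standard error was close to that of other genes (median 0.18 against 0.19), while the typical size of the fold change was smaller (median absolute log2 value 0.10 against 0.25). With 1 library left out, every interval stayed within 2-fold without DHA 2, DHA 3 or DMSO 1. CCNE1 was the exception in the other 3 fits, with an upper bound of 1.06 without DHA 1, 1.11 without DMSO 2 and 1.07 without DMSO 3.

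**Figure D1:**
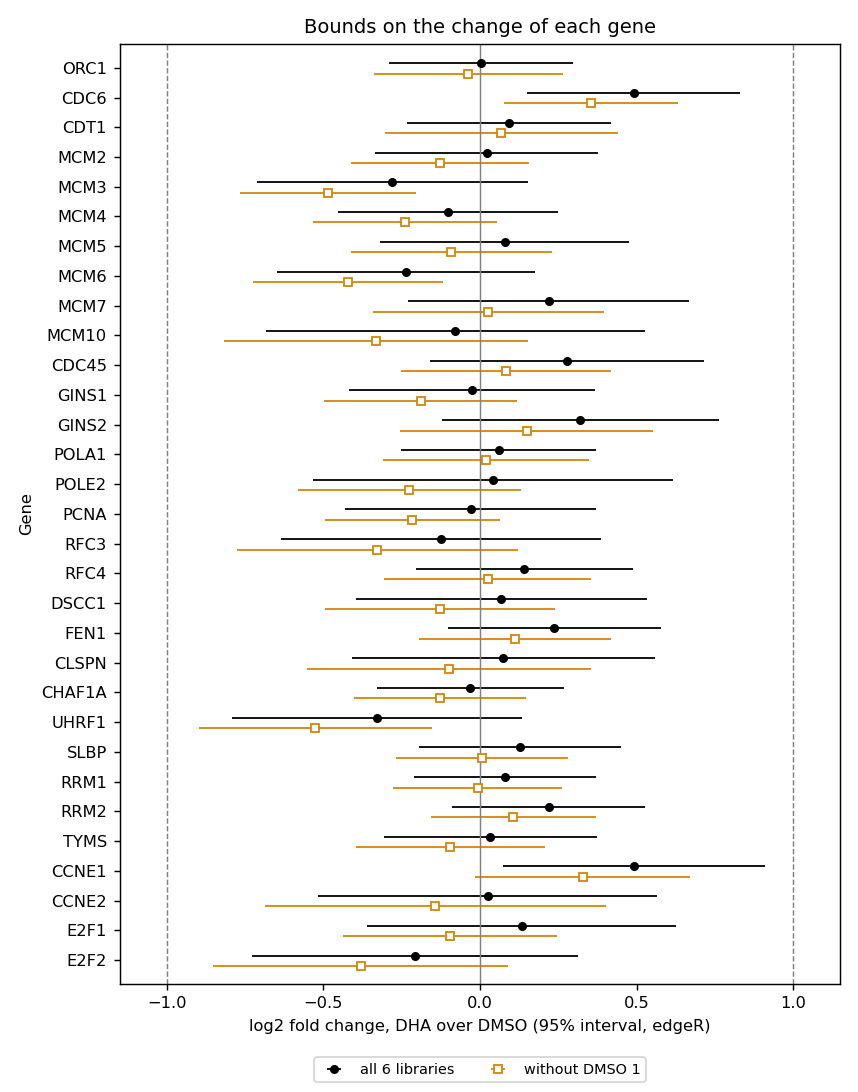
Log2 fold change (DHA over DMSO) of each of the 31 genes with its 95% interval from edgeR, from all 6 libraries (filled circles) and without DMSO 1 (open squares), with dashed lines at a 2-fold change. All intervals lie inside the dashed lines, CDC6 and CCNE1 lie highest, and the values move down without DMSO 1, the lowest DMSO library for all 31 genes.

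DMSO 1 was the lowest DMSO library for all 31 genes, where it was lowest for 43.0% of all genes tested, and the lowest of all 6 libraries for 26 of the 31, against 27.3% of all genes. DHA 2 was the lowest of the 6 for as large a share of all genes, 27.3%, but for only 1 of the 31. Relative to the mean log2 CPM of the 3 DMSO libraries, the median of the 31 genes was -0.04, 0.16 and 0.12 in DHA 1, DHA 2 and DHA 3, against -0.37, 0.14 and 0.20 in DMSO 1, DMSO 2 and DMSO 3. The median over all genes tested lay between -0.0067 and 0.02 in every library. DHA 2 and DHA 3 thus sat near DMSO 2 and DMSO 3, DHA 1 slightly lower, and DMSO 1 below all of them. The SD over libraries was smaller in DHA for 25 of the 31 genes, with a median coefficient of variation of 11.4% in DHA and 21.5% in DMSO. The DMSO spread of these genes includes the low DMSO 1. The same values over all genes are not given, so this does not describe the DHA libraries at large.

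**Figure D2:**
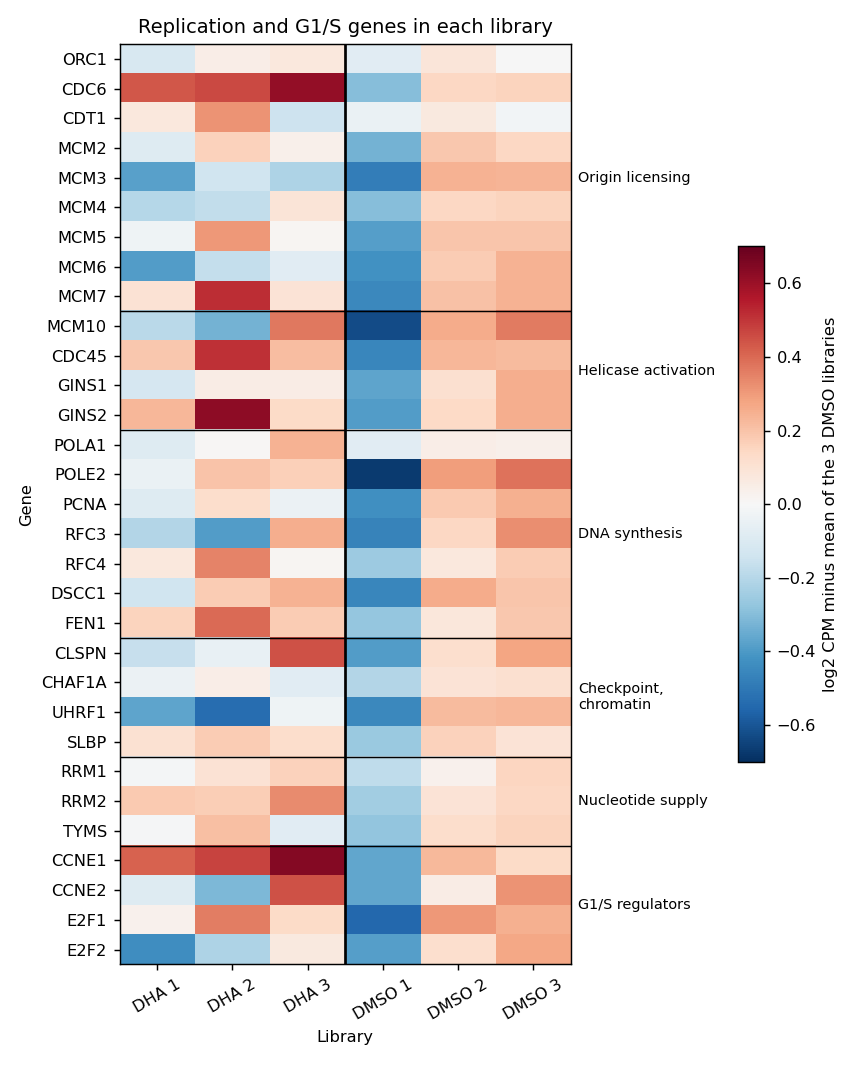
Log2 CPM of each gene in each library minus the mean of the 3 DMSO libraries, with genes in rows by role and the DHA libraries left of the DMSO libraries. The DMSO 1 column is below the DMSO mean for all 31 genes, while CDC6 and CCNE1 are above it in all 3 DHA libraries.

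Without DMSO 1, the lowest DMSO library for all 31 genes, the balance of signs turned. Leaving it out moves their fold changes down, so the direction of this turn was fixed by the choice and is not read as a result. The median log2 fold change of the 31 genes was then -0.10, with 11 genes above 0 and 20 below, and still 0 calls, where 1.2% of genes were called. At an unadjusted p under 0.05 there were 4 genes, or 12.9%, against 17.1% of all genes: MCM3, MCM6 and UHRF1 lower and CDC6 higher. These p-values carry the same limit and rest on DMSO 2 and DMSO 3 as the only controls. Against DMSO 2 and DMSO 3 alone, a comparison chosen after the values were seen, all 3 DHA libraries lay below both DMSO 2 and DMSO 3 for 9 genes, or 29%, against 18.9% of all genes. These were MCM3, MCM4, MCM6, PCNA, GINS1, E2F2, POLE2, UHRF1 and CHAF1A. They lay above both for 3 genes, CDC6, CCNE1 and RRM2, or 9.68%, against 19.8% of all genes. The same 3 genes were the ones whose groups did not overlap with all 6 libraries, where 27.8% of all genes did not overlap, 14.3% higher and 13.5% lower in DHA. With all 6 libraries, 0 of the 31 genes were lower without overlap. DMSO 1 was the lowest DMSO library for all 31, so leaving it out could add only genes lower in DHA. Over all genes it could add both kinds. The shares without DMSO 1 are therefore not like for like, and no excess is read from them.

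**Figure D3:**
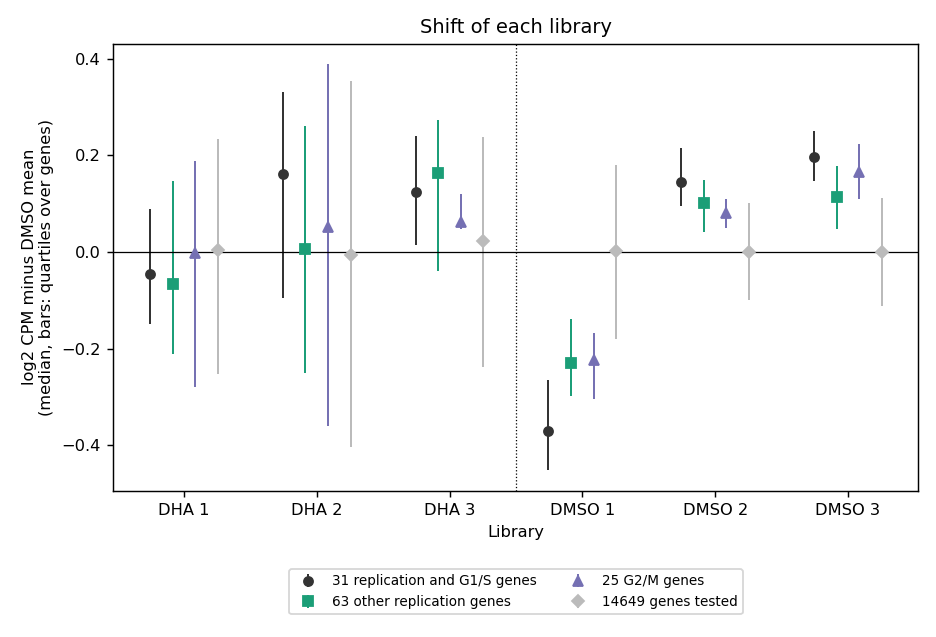
Median log2 CPM relative to the mean of the 3 DMSO libraries, with bars from the first to the third quartile over genes, for the 31 genes, the other replication genes, the G2/M genes and all genes tested in each library. DMSO 1 lies lowest for the 3 cell cycle lists and at 0 for all genes, and the DHA libraries lie above it for those 3 lists.

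Among the licensing genes, the loader gene CDC6, on chromosome 17 at 40287879 to 40304657 (GRCh38.p14), gave 96.6, 98.4 and 109.6 CPM in DHA 1 to DHA 3, against 58.1, 79 and 79.7 CPM in DMSO 1 to DMSO 3. All 3 DHA libraries lay above all 3 DMSO libraries. The means were 102 ± 7.02 CPM in DHA and 72.3 ± 12.2 CPM in DMSO (SD, n = 3 each), a log2 fold change of 0.49 with an SE of 0.15 (edgeR adjusted p = 0.122) with a 95% interval of 0.15 to 0.83. Over the alternatives its adjusted p ran from 0.041, with the replicate number as a block (a fit that called 8.68% of all genes), to 0.297, and the fold change stayed positive in all of them. For its partners in loading, the means lay close together. ORC1, the origin-bound ATPase, averaged 34.1 ± 2.37 CPM in DHA and 34.1 ± 1.94 CPM in DMSO, with an interval of -0.29 to 0.30, and CDT1, the factor that brings the ring to origins, averaged 64.9 ± 10.4 CPM in DHA and 60.9 ± 2.66 CPM in DMSO, with an interval of -0.23 to 0.42. For both genes the groups overlapped and DMSO 1 was close to the other DMSO libraries.

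None of the 6 subunits of the MCM2 to MCM7 ring passed the test. MCM3, on chromosome 6 at 52264015 to 52284742, gave 121, 143 and 135 CPM in DHA 1 to DHA 3, against 112, 186 and 186 CPM in DMSO 1 to DMSO 3. The DHA libraries lay below DMSO 2 and DMSO 3 and above DMSO 1, with DHA 1 nearest to DMSO 1. The log2 fold change was -0.28 with an SE of 0.19 (edgeR adjusted p = 0.428). Without DMSO 1 it was -0.48 (95% interval -0.77 to -0.20, edgeR unadjusted p = 0.0042, adjusted p = 0.106). DMSO 1 was left out because these genes were lowest there, so the direction of this move was fixed by the choice. The interval rests on DMSO 2 and DMSO 3 as the only controls, and its p is not read as support. MCM6, on chromosome 2 at 135839626 to 135876443, also lay between DMSO 1 and the other DMSO libraries in all 3 DHA libraries, with 90.5, 106 and 112 CPM in DHA 1 to DHA 3, against 88.6, 134 and 141 CPM in DMSO 1 to DMSO 3. Its log2 fold change was -0.24 with an SE of 0.18 (edgeR adjusted p = 0.477). Without DMSO 1 it was -0.42 (95% interval -0.72 to -0.12, edgeR unadjusted p = 0.0127, adjusted p = 0.17), with the same limit as for MCM3. MCM4 averaged 178 ± 20.3 CPM in DHA and 191 ± 32.4 CPM in DMSO, with an interval of -0.45 to 0.25. MCM2 averaged 164 ± 14.3 CPM in DHA and 161 ± 30.1 CPM in DMSO (interval -0.33 to 0.38) and MCM5 161 ± 20.9 CPM in DHA and 152 ± 32.7 CPM in DMSO (interval -0.32 to 0.48), so these means differed by less than the spread between libraries. MCM7 gave 288, 385 and 288 CPM in DHA 1 to DHA 3, against 197, 311 and 318 CPM in DMSO 1 to DMSO 3, with DHA 2 highest of all and an interval of -0.23 to 0.67. Levels can be compared only roughly between genes, per kilobase of annotated exon (GENCODE 29). MCM7 stood at 73.1 ± 12.8 CPM per kb in DHA and 62.8 ± 15.5 CPM per kb in DMSO, MCM3 at 36.4 ± 3.12 CPM per kb in DHA and 44.2 ± 11.6 CPM per kb in DMSO, MCM6 at 24.99 ± 2.73 CPM per kb in DHA and 29.4 ± 6.91 CPM per kb in DMSO and MCM5 at 21.9 ± 2.85 CPM per kb in DHA and 20.7 ± 4.46 CPM per kb in DMSO. Exons of all isoforms enter these lengths, which lowers the value of a gene with many long isoforms. Exons of MCM2 overlap other genes, mostly an antisense gene, over 23.6% of their length and those of MCM7 overlap AP4M1 over 8.94%, and since strand use in counting is not stated their counts are uncertain.

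**Figure D4:**
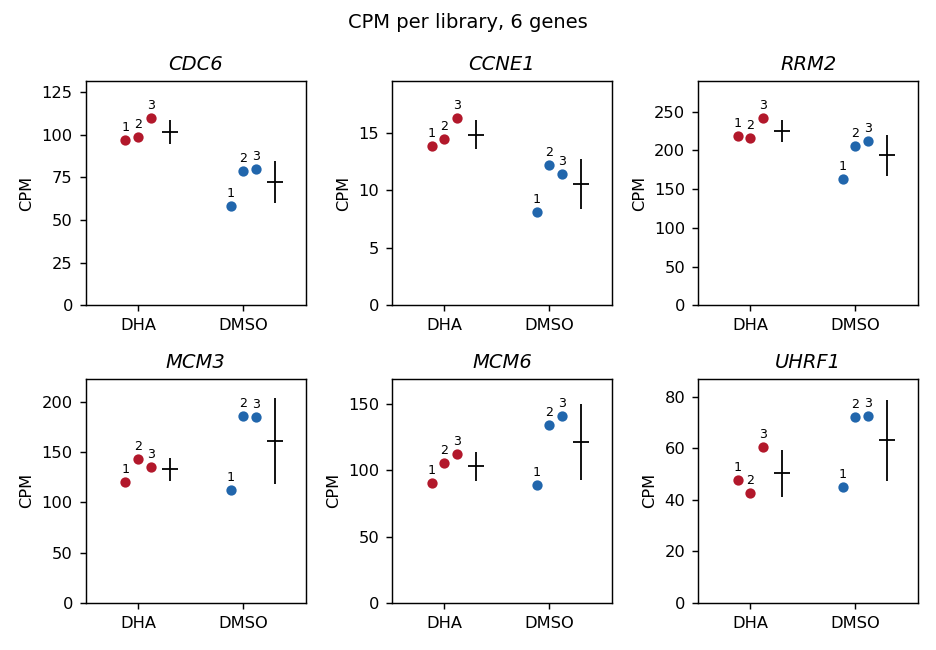
CPM in each library (numbered points) for CDC6, CCNE1, RRM2, MCM3, MCM6 and UHRF1, with the DHA libraries left of the DMSO libraries and the mean ± SD of 3 libraries beside them in black; axes start at 0. CDC6, CCNE1 and RRM2 are higher in all DHA libraries than in all DMSO libraries, while for MCM3, MCM6 and UHRF1 the DHA libraries lie below DMSO 2 and DMSO 3. For MCM3 and MCM6 all DHA libraries lie above DMSO 1, and for UHRF1 DMSO 1 falls within their range.

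Of the helicase activation genes, GINS2, a subunit of the GINS complex, gave 49.7, 65.4 and 46.4 CPM in DHA 1 to DHA 3, against 32.3, 46.6 and 50.5 CPM in DMSO 1 to DMSO 3. DHA 2 was highest and DMSO 1 lowest, and the groups overlapped (log2 fold change 0.32 with an SE of 0.20, edgeR adjusted p = 0.377). CDC45, which joins GINS at the helicase, gave 50.6, 63.3 and 51.6 CPM in DHA 1 to DHA 3, against 32.4, 52.2 and 51.9 CPM in DMSO 1 to DMSO 3. DHA 2 again lay highest, while DHA 1 and DHA 3 lay level with DMSO 2 and DMSO 3 (interval -0.16 to 0.72). GINS1 averaged 30.2 ± 2.01 CPM in DHA and 30.7 ± 6.602 CPM in DMSO, with an interval of -0.42 to 0.37. MCM10, which helps to fire the assembled helicase, gave 24.2, 21.9 and 35.7 CPM in DHA 1 to DHA 3, against 17.8, 33.04 and 35.5 CPM in DMSO 1 to DMSO 3. DHA 3 stood with DMSO 2 and DMSO 3, while DHA 1 and DHA 2 were nearer DMSO 1 (interval -0.68 to 0.53).

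For the 7 DNA synthesis genes DMSO 1 was again the lowest DMSO library, and none passed the test. PCNA, the sliding clamp, gave 177, 205 and 183 CPM in DHA 1 to DHA 3, against 139.6, 214 and 223 CPM in DMSO 1 to DMSO 3. The DHA libraries lay between DMSO 1 and the other DMSO libraries, so that the means differed little, at 188 ± 15.01 CPM in DHA and 192 ± 45.8 CPM in DMSO (log2 fold change -0.030 with an SE of 0.18, interval -0.43 to 0.37). FEN1, the flap nuclease of lagging-strand maturation, averaged 93.9 ± 8.92 CPM in DHA and 79.7 ± 12.8 CPM in DMSO (log2 fold change 0.24 with an SE of 0.15, edgeR adjusted p = 0.395). Of the clamp loader genes, RFC4 averaged 97.7 ± 12.3 CPM in DHA and 88.6 ± 13.3 CPM in DMSO (interval -0.20 to 0.49), and RFC3 gave 45.4, 39.8 and 62.5 CPM in DHA 1 to DHA 3, against 37.8, 57.8 and 65.6 CPM in DMSO 1 to DMSO 3. For RFC3 DHA 2 was about as low as DMSO 1, and DHA 3 lay among DMSO 2 and DMSO 3 (interval -0.64 to 0.39). DSCC1, a subunit of an alternative clamp loader that acts in sister chromatid cohesion, averaged 18.6 ± 2.54 CPM in DHA and 17.8 ± 4.46 CPM in DMSO (interval -0.39 to 0.53). POLA1, the catalytic subunit of the priming polymerase, averaged 35.8 ± 4.29 CPM in DHA and 34.3 ± 1.62 CPM in DMSO, with an interval of -0.25 to 0.37. POLE2, a subunit of the leading-strand polymerase, averaged 10.8 ± 0.9798 CPM in DHA and 10.5 ± 3.695 CPM in DMSO, with an interval of -0.53 to 0.62 and the lowest level of the 6 libraries in DMSO 1 at 6.27 CPM. Named pseudogenes exist for PCNA (3), FEN1 (1) and RFC3 (1), so reads may be shared with them.

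UHRF1, which reads hemimethylated DNA and brings the maintenance methyltransferase to new strands, had the lowest fold change of the 31 genes. It lies on chromosome 19 at 4903080 to 4962154 and gave 47.9, 42.6 and 60.5 CPM in DHA 1 to DHA 3, against 45.1, 72.1 and 72.6 CPM in DMSO 1 to DMSO 3. The DHA libraries lay below DMSO 2 and DMSO 3, and DMSO 1 fell within their range. The log2 fold change was -0.33 with an SE of 0.21 (edgeR adjusted p = 0.383, interval -0.79 to 0.13). Without DMSO 1 it was -0.53 (95% interval -0.90 to -0.15, edgeR unadjusted p = 0.0117, adjusted p = 0.163). As for MCM3, the direction of this move was fixed by the choice of library, and its p is not read as support. CHAF1A, a subunit of the chaperone that places histones behind the fork, averaged 67.1 ± 3.01 CPM in DHA and 68.5 ± 8.14 CPM in DMSO (interval -0.33 to 0.27). CLSPN, which links stalled forks to the checkpoint kinase, averaged 28.1 ± 6.59 CPM in DHA and 26.6 ± 6.08 CPM in DMSO, with DHA 3 highest at 35.6 CPM (interval -0.41 to 0.56). SLBP, which binds the stem-loop of histone transcripts, lay within a narrow range in DHA and was lower in DMSO 1 than in the other 5 libraries, at 51.01 ± 1.32 CPM in DHA and 46.7 ± 7.004 CPM in DMSO (interval -0.20 to 0.45).

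For nucleotide supply, RRM2, the regulated subunit of ribonucleotide reductase, gave 218, 216 and 241 CPM in DHA 1 to DHA 3, against 163, 205 and 212 CPM in DMSO 1 to DMSO 3. The groups did not overlap, but the log2 fold change of 0.22 with an SE of 0.14 missed the threshold (edgeR adjusted p = 0.386, interval -0.089 to 0.53). Its partner subunit RRM1 averaged 227 ± 13.7 CPM in DHA and 215 ± 24.4 CPM in DMSO (interval -0.21 to 0.37). TYMS, the thymidylate synthase and the target of fluoropyrimidines, averaged 144 ± 15.2 CPM in DHA and 141 ± 22.5 CPM in DMSO (interval -0.31 to 0.37). The counts of TYMS are uncertain, since 46.6% of its exon length overlaps other genes, mostly ENOSF1 on the opposite strand, and it has 2 named pseudogenes. RRM2 has 3 such pseudogenes and an exon overlap of 20.2%.

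Of the G1/S regulators, CCNE1, the cyclin E1 gene, on chromosome 19 at 29811991 to 29824312, gave 13.8, 14.4 and 16.2 CPM in DHA 1 to DHA 3, against 8.08, 12.2 and 11.4 CPM in DMSO 1 to DMSO 3. All DHA libraries lay above all DMSO libraries, with means of 14.8 ± 1.25 CPM in DHA and 10.6 ± 2.19 CPM in DMSO (SD, n = 3 each) and a log2 fold change of 0.49 with an SE of 0.19 (edgeR adjusted p = 0.188, interval 0.072 to 0.91). Over the alternatives its adjusted p ran from 0.0797 to 0.353, and without DMSO 1 its log2 fold change was 0.33 (95% interval -0.015 to 0.67, unadjusted p = 0.0583, adjusted p = 0.309). CCNE2, the cyclin E2 gene, gave 9.96, 8.52 and 14.5 CPM in DHA 1 to DHA 3, against 8.22, 10.99 and 13.2 CPM in DMSO 1 to DMSO 3, with DHA 3 highest and DHA 2 near DMSO 1 (interval -0.52 to 0.57). Its exons overlap INTS8 and other genes over 37.1% of their length. E2F1 gave 24.9, 31.4 and 26.9 CPM in DHA 1 to DHA 3, against 16.7, 30.2 and 29 CPM in DMSO 1 to DMSO 3, with DHA 2 highest, DHA 1 and DHA 3 below DMSO 2 and DMSO 3, and DMSO 1 lowest (interval -0.36 to 0.63). E2F2, with the lowest level per kilobase of the 31 genes at 0.968 ± 0.173 CPM per kb in DHA and 1.12 ± 0.252 CPM per kb in DMSO, had a log2 fold change of -0.21 with an SE of 0.23 (interval -0.73 to 0.31).

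To set aside the shift shared by a library, each gene was also read against the median log2 CPM of the 31 genes in the same library, a scale chosen after the values were seen and given with no test. On it CDC6 stood at 0.79 ± 0.18 in DHA and 0.32 ± 0.044 in DMSO (SD, n = 3 each) and CCNE1 at -1.98 ± 0.17 in DHA and -2.46 ± 0.069 in DMSO. MCM3 stood at 1.18 ± 0.063 in DHA and 1.45 ± 0.12 in DMSO and MCM6 at 0.81 ± 0.10 in DHA and 1.05 ± 0.067 in DMSO. In DHA 4 genes were higher without overlap on this scale, CDC6, CCNE1, CDC45 and FEN1, or 12.9%, against 7.07% of all genes. There were 2 lower without overlap, MCM3 and MCM6, or 6.45%, against 7.99% of all genes. Because the scale is built from the 31 genes, it takes out their low DMSO 1 but raises DMSO 1 for genes at large. The shares on this scale are therefore not like for like, and no excess is read from them. In CPM, 9.68% of the 31 genes were higher without overlap, against 14.3% of all genes, and 0% were lower, against 13.5%. The ring subunits MCM2, MCM4, MCM5 and MCM7 overlapped between groups on this scale.

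A wider list of 63 replication genes in the table, which shares no gene with the 31, also gave 0 calls among 63 tested in edgeR, 8 at an unadjusted p under 0.05 (12.7%, against 20.3% of all genes), and a median log2 fold change of 0.019. Its median relative to the DMSO mean was -0.07, 0.01 and 0.16 in DHA 1, DHA 2 and DHA 3, against -0.23, 0.10 and 0.11 in DMSO 1, DMSO 2 and DMSO 3. The genes with the smallest p were POLE3 and POLE4, the histone-fold subunits of the leading-strand polymerase, and ORC5, an origin recognition subunit. POLE3 averaged 166 ± 5.81 CPM in DHA and 125 ± 10.6 CPM in DMSO (edgeR adjusted p = 0.112), ORC5 35.9 ± 1.72 CPM in DHA and 25.4 ± 3.63 CPM in DMSO (edgeR adjusted p = 0.112) and POLE4 48.9 ± 13.9 CPM in DHA and 31.6 ± 1.33 CPM in DMSO (edgeR adjusted p = 0.125). DESeq2 called these 3 of the 63 genes higher in DHA (4.76%, against 7.75% of all genes called by it), with adjusted p-values of 0.0381 for ORC5, 0.0409 for POLE3 and 0.0475 for POLE4. Neither share is above that of all genes. The 25 G2/M genes gave 0 calls in edgeR, 3 at an unadjusted p under 0.05 (12%, against 20.3% of all genes), and a median log2 fold change of 0.027. These 3 are given because their p was smallest. The mitotic kinesin gene KIF20A averaged 71.3 ± 1.603 CPM in DHA and 97.1 ± 11.2 CPM in DMSO (edgeR adjusted p = 0.106) and was the 1 gene of the 25 called by DESeq2, lower in DHA (adjusted p = 0.0346; 4%, against 7.75% of all genes). PLK1, a mitotic kinase, averaged 162 ± 13.01 CPM in DHA and 119 ± 20.8 CPM in DMSO (edgeR adjusted p = 0.155), and FOXM1, a factor that drives mitotic genes, 141 ± 5.82 CPM in DHA and 113 ± 7.39 CPM in DMSO (edgeR adjusted p = 0.187). DMSO 1 was below the DMSO mean for all 25 G2/M genes, as it was for all 31 replication and G1/S genes and for 57 of the 63 others.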

How the data were processed

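RNA sequencing was done on total RNA of CAL-27 cells, isolated with TRIzol; per the labels' protocols, the library kit was VAHTS Universal V10. Values deposited by the authors are raw counts of reads for each gene, without normalization. The submitters' processing notes name fastp, HISAT2, HTSeq, R 3.2.0 and build GRCh38, with no settings, annotation or strand use. Reads shared by overlapping or near-identical genes may be lost or split.

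Genes were kept by edgeR's filterByExpr (minimum count 10), scaled by TMM and tested with edgeR 4.0.16's quasi-likelihood F test (two-sided, treatment only), with Benjamini-Hochberg adjustment over all 14649 genes and a threshold of 0.05. CPM are relative to the scaled totals. The SE is the log2 fold change over the square root of F, and 95% intervals use the fit's total degrees of freedom. Library shifts use log2 CPM with a prior count of 2. The lowest count of a member was 166, and 3 counts equal 0.0789 to 0.083 CPM. Alternatives were DESeq2 1.42.0 size factors and Wald test, limma 3.58.1 voom, upper-quartile and unscaled totals, other filters, a replicate block, and each library left out. The fit was tested on simulated data. A leukocyte marker is not reported here. Members, lists, motifs and tests were chosen with earlier results of these data known. All members are named; of other lists, the genes with the smallest p (up to 3) where none passed.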

Additional observations from a re-analysis of the deposited data

How the results depend on the processing

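The 31 genes gave 0 calls under each alternative run but the replicate block, which gave 1, CDC6 (log2 fold change 0.50, adjusted p = 0.041 by edgeR). Same-numbered libraries deviated from their group means with correlations of 0.26, 0.12 and -0.04. DHA 1 correlated best with DMSO 1, and DHA 2 with DMSO 2 (0.119, beside 0.117 with DMSO 3), while DHA 3 correlated best with DMSO 2 (0.062). The labels do not say that the numbers pair libraries, so they were not taken as pairs. Called among all genes were 395, but 649 with no filter, 251 above a mean of 5 CPM, 1272 with the block, 1135 in DESeq2, and 16 to 789 with a library left out. The 16 calls without DHA 1 and 789 without DHA 3 are the extremes; without DMSO 1 there were 178, without DMSO 2 46, without DMSO 3 168 and without DHA 2 189. The other replication list gave 4 calls with the block (ORC5, POLE4 and TIPIN higher, ATAD5 lower), 3 in DESeq2 and 0 to 2 with a library left out (POLE4 and ATAD5 without DHA 3), and the G2/M list 1 in DESeq2. The median of the 31 genes ran from -0.10 (without DMSO 1) to 0.16 (without DMSO 3).

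Signs near 0 depended on scaling. With upper-quartile scaling the log2 fold change was -0.010 for MCM2, -0.028 for ORC1 and -0.014 for CCNE2, with unscaled totals -0.0041 for MCM2 and -0.017 for ORC1, and above a mean of 5 CPM -0.00061 for MCM2, -0.019 for ORC1 and -0.00046 for CCNE2. With a library left out the sign turned in at least 1 fit for 17 genes, given with their lowest and highest log2 fold change: MCM2 (-0.13 to 0.11), MCM5 (-0.091 to 0.17), MCM10 (-0.33 to 0.097), PCNA (-0.22 to 0.093), CDT1 (-0.034 to 0.21), ORC1 (-0.037 to 0.061), GINS1 (-0.19 to 0.11), RRM1 (-0.0077 to 0.16), TYMS (-0.095 to 0.11), CCNE2 (-0.22 to 0.19), E2F1 (-0.095 to 0.28), POLA1 (-0.032 to 0.13), POLE2 (-0.23 to 0.22), CHAF1A (-0.13 to 0.025), RFC3 (-0.33 to 0.041), DSCC1 (-0.13 to 0.20) and CLSPN (-0.13 to 0.22). None of these was called in any fit, and the cause was not tested. CDC6 (0.35 to 0.57), CCNE1 (0.33 to 0.61), MCM3 (-0.48 to -0.16), MCM6 (-0.42 to -0.12) and UHRF1 (-0.53 to -0.22) kept their sign. So did MCM4, MCM7, GINS2, RRM2, CDC45, FEN1, RFC4, SLBP and E2F2. The lowest count of any of the 31 genes in a library was 166.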

Other observations

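Replication-dependent histone genes, whose transcripts SLBP binds and which cells make mainly in S phase, were listed with 21 genes in the table. Of these, 9 passed the filter and 0 were called in edgeR, where 2.7% of all genes tested were. At an unadjusted p under 0.05 there was 1 of the 9, where 20.3% of all genes passed. Their median relative to the DMSO mean was 0.29, 0.29 and -0.29 in DHA 1, DHA 2 and DHA 3, against 0.53, -0.23 and -0.24 in DMSO 1, DMSO 2 and DMSO 3. DMSO 1 was above the DMSO mean for all 9, while it was below it for all 31 replication and G1/S genes. Some of the 9 have few counts. H2AC11 averaged 0.379 ± 0.0951 CPM in DHA and 0.284 ± 0.204 CPM in DMSO. H2BC11 averaged 0.28 ± 0.104 CPM in DHA and 0.234 ± 0.0786 CPM in DMSO, and H2BC8 was similarly low. H2BC12 averaged 37.7 ± 3.42 CPM in DHA and 27.9 ± 2.72 CPM in DMSO (edgeR adjusted p = 0.139), H1-2 13.3 ± 4.504 CPM in DHA and 9.56 ± 0.266 CPM in DMSO (edgeR adjusted p = 0.273) and H2BC8 0.188 ± 0.1601 CPM in DHA and 0.397 ± 0.252 CPM in DMSO (edgeR adjusted p = 0.397). Copies of these genes are nearly identical and most of their transcripts lack a poly(A) tail, and the labels do not say how transcripts were selected, so these levels are uncertain.

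The CCAAT word, searched on both strands, was in 17 of the 27 promoters of the 31 genes that were matched (63.0%), against 35.7% of all promoters in the table. RRM2 held 3, CDC45 4 and CHAF1A 4, all without an E2F-type word in the same window, and CCNE1, FEN1, RFC4 and SLBP held neither.

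Per kilobase of annotated exon, the highest level of the 31 genes was that of PCNA, at 128 ± 10.2 CPM per kb in DHA and 131 ± 31.2 CPM per kb in DMSO, and the lowest that of E2F2. The thymidylate synthase gene TYMS stood at 58.4 ± 6.17 CPM per kb in DHA and 57.1 ± 9.098 CPM per kb in DMSO, RRM1 at 54.3 ± 3.28 CPM per kb in DHA and 51.4 ± 5.85 CPM per kb in DMSO and RRM2 at 42.3 ± 2.64 CPM per kb in DHA and 36.3 ± 5.08 CPM per kb in DMSO. The cyclin E genes lay near the bottom, CCNE1 at 5.82 ± 0.4905 CPM per kb in DHA and 4.14 ± 0.858 CPM per kb in DMSO and CCNE2 at 2.498 ± 0.705 CPM per kb in DHA and 2.46 ± 0.568 CPM per kb in DMSO. Exons of all isoforms enter these lengths, so the order of genes depends in part on the annotation.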
